A study of Caenorhabditis elegans with 8 samples.

Results

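Before DNA can be copied, each replication origin is licensed: the origin recognition complex (ORC) binds DNA, and CDC-6 and CDT-1 then load the ring of MCM-2 to MCM-7, the helicase that unwinds the double helix. Licensing is kept to one round per cell cycle by destroying or moving the loaders, and CDT-2 is the substrate receptor that directs the CUL-4 ubiquitin ligase to CDT-1. In the *C. elegans* germline, DNA is replicated in the mitotic zone at the distal end and in the last S phase before meiosis, and maturing oocytes store transcripts for the rapid divisions of the embryo. The 10 genes described here are *mcm-2*, *mcm-3*, *mcm-4*, *mcm-5*, *mcm-6* and *mcm-7*, the ORC subunit gene *orc-2*, the loader genes *cdc-6* and *cdt-1*, and *cdt-2*. Below, *orc-2*, *cdc-6*, *cdt-1* and *cdt-2* are together called the licensing genes, although CDT-2 acts in the turnover of CDT-1 and not in loading. They were taken by symbol from the 46739 genes of each expression table, and all 10 were found in both tables and passed the filter on low values, a mean of at least 10. In the Ensembl annotation *mcm-4*, *cdc-6* and *cdt-1* lie on chromosome I, *mcm-2* and *orc-2* on II, *mcm-5* and *mcm-6* on III, and *mcm-3*, *mcm-7* and *cdt-2* on V.

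Expression was measured by RNA sequencing of germlines from wild type (WT, strain N2) worms and from *nmad-1*(ok3133) worms, in which a deletion disrupts the gene for NMAD-1, a putative DNA demethylase of the AlkB family. Both genotypes were kept at 20°C and at 25°C, all on bacteria that lack the *dam* and *dcm* methylases, with 2 biological replicates in each of the 4 groups and germlines of 100 worms in each group. The mutant groups carry a single deletion allele, and no rescued strain is among the samples. The study asked which germline genes are misregulated without NMAD-1. Values are normalized expected counts, that is, the estimated number of reads for a gene divided by a size factor for the library. The tables of 20°C and 25°C were normalized apart, so genotypes are compared within a temperature. The letters A and B only tell the libraries of each group apart.

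The *nmad-1* transcript itself was at 540.3 and 471 in WT against 114 and 131 in the mutant at 20°C, and 764 and 753 against 170.4 and 170.5 at 25°C, so every mutant library was below every WT library. Depth was between 18451560 and 33429408 reads per library. Ribosomal RNA genes took 22.2% to 34.8% of the values, and the most in library A of *nmad-1* at 20°C. That library stood apart: over all genes tested the median ratio of library A to library B was 0.890 in this group and between 0.978 and 1.01 in the others. The labels give the stage as L4, yet the 8 oocyte markers summed to between 169391 and 349974 and the 8 sperm markers to between 28.4 and 639. Every germ line marker, *gld-1* and *glh-1* among them, was detected in every group.

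At 25°C the MCM genes were lower in *nmad-1* germlines than in WT on the deposited scaling, whereas *mcm-3*, *mcm-4* and *mcm-5* turned positive when libraries were scaled on a list of 30 germline genes. On the deposited scaling *mcm-2* fell by 47.5%, *mcm-6* fell by 44.3%, *mcm-7* fell by 42.7%, *mcm-3* fell by 39.3%, *mcm-4* fell by 36.3% and *mcm-5* fell by 32.7%. Of the licensing genes *cdc-6* fell by 30.4%, *cdt-2* fell by 24.9% and *cdt-1* fell by 22.5%, while *orc-2* did not pass the test, and these 4 turned positive when libraries were scaled to the same total. A call was an adjusted p under 0.05 in limma over all genes tested (Benjamini-Hochberg), and it was reached by 9 of the 10 genes, all lower, where 38% of the 11955 genes tested were called lower and 32.8% higher. Among genes with a mean of at least 100, which all 10 exceed, 59.9% were called lower and the median log2 fold change was -0.40. Of the 6 MCM genes the median log2 fold change was -0.76 and of the other 4 genes -0.39. It was -0.09 over all genes tested, -0.80 over the 30 germline genes and -0.78 over the 8 oocyte markers. Scaled to the same total per library, however, *mcm-2* and *mcm-6* were called lower and *orc-2* higher and the other 7 were not called, and scaled on the germline genes no MCM gene was called lower and *mcm-5* was called higher.

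*mcm-2* was 12993 and 14337 in WT and 7159 and 7160.2 in *nmad-1* at 25°C (log2 fold change -0.93, SE 0.09, limma adjusted p = 2.2e-04). *mcm-6* was 11409 and 12542 in WT against 6679 and 6651 (log2 fold change -0.84, SE 0.09, limma adjusted p = 2.8e-04). These were the largest fold changes of the 10 genes, and in both the mutant libraries lay within a narrow band well under the lower WT library. The products of these genes sit side by side in the ring, MCM-2 next to MCM-6.

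*mcm-7*, part of the catalytic core of the helicase in yeast and animals together with MCM-4 and MCM-6, was 17353 and 19654 in WT and 10689 and 10491 in *nmad-1* (log2 fold change -0.80, SE 0.10, limma adjusted p = 3.9e-04). *mcm-3* was 12921 and 13500.2 against 8133 and 7893 (log2 fold change -0.72, SE 0.09, limma adjusted p = 3.8e-04). *mcm-4* was 8306 and 9822 against 5747 and 5751 (log2 fold change -0.65, SE 0.10, limma adjusted p = 0.0010), and its WT libraries differed more in proportion than those of any other MCM gene. *mcm-5*, whose product forms with MCM-2 the gate of the ring, moved least of the 6, with 8439 and 8803 in WT and 5673 and 5923 in *nmad-1* (log2 fold change -0.57, SE 0.09, limma adjusted p = 8.8e-04). No mutant library reached a WT library in any of the 6 genes.

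Among the licensing genes, *cdc-6*, an ATPase that joins ORC at origins, was 3611 and 3466 in WT and 2477 and 2446 in *nmad-1* at 25°C (log2 fold change -0.52, SE 0.09, limma adjusted p = 0.0014). *cdt-1*, whose product brings the MCM ring to the origin, was 2608 and 2705 against 2136 and 1981 (log2 fold change -0.37, SE 0.09, limma adjusted p = 0.0086). Without WT library B *cdt-1* was not called, although its log2 fold change moved only to -0.34. *cdt-2* was 4415 and 4203 against 3479.8 and 3007 (log2 fold change -0.41, SE 0.10, limma adjusted p = 0.0072). Without the trend of the variance on the mean, *cdt-1* and *cdt-2* were not called (limma adjusted p = 0.063 and 0.068).

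*orc-2* was 2069.9 and 2045 in WT and 1863 and 1602 in *nmad-1*. Its groups did not overlap either, but its log2 fold change of -0.25 (95% interval -0.50 to -0.01) had an adjusted p of 0.063 in limma. Without *nmad-1* library A it was -0.36 (limma adjusted p = 0.025) and without *nmad-1* library B -0.14 (adjusted p = 0.22), and without either WT library the adjusted p was 0.20 to 0.23. In all, both mutant values lay below both WT values in 10 of the 10 genes at 25°C, where 46.7% of all genes tested did the same.

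**Figure D1:**
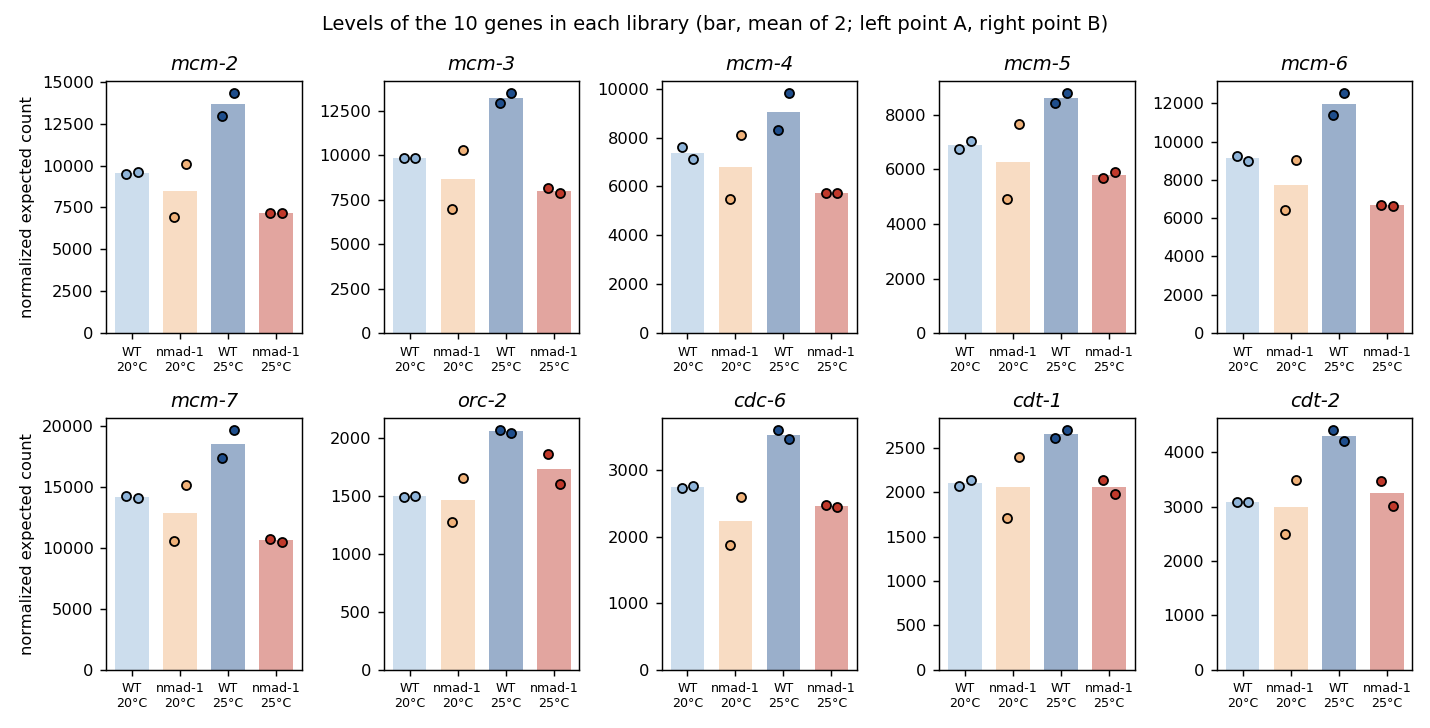
Normalized expected count (y axis, from 0) of each of the 10 genes in the 4 groups (x axis). Bars are means of 2 libraries and points are libraries A (left) and B (right). The tables of 20°C and 25°C were normalized apart, and at 25°C both *nmad-1* points lie below both WT points in 10 of the 10 genes on this deposited scaling, which other scalings change.

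At 20°C none of the 10 genes was called in either direction, and none had an unadjusted p under 0.05. In limma 0.481% of the 12260 genes tested were called at this temperature, 0.139% lower. The *nmad-1* libraries stood on either side of WT or close to it: *mcm-2* was 9471 and 9631 in WT and 6911 and 10112 in *nmad-1*. The same split ran through *mcm-3*, with 9859.5 and 9830.1 in WT and 6998 and 10321 in *nmad-1*. Library A was the low one and library B the high one.

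*mcm-4* was 7594 and 7118 in WT and 5477 and 8085 in *nmad-1*. *mcm-5* was 6738 and 7054 against 4899 and 7677, and *mcm-7* was 14241 and 14077 against 10546 and 15157.5. In these 3 genes the mutant libraries lay on either side of both WT libraries. *mcm-6* was 9263 and 8993 in WT and 6439.7 and 9016 in *nmad-1*, where library B fell between the WT libraries. The log2 fold changes of the MCM genes were between -0.26 and -0.14, with limma adjusted p of 0.95 in each.

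*orc-2* was 1493 and 1497 in WT and 1275 and 1656 in *nmad-1* at 20°C, and *cdt-1* was 2069.96 and 2143 against 1708 and 2402. *cdt-2* was 3077 and 3089 against 2504 and 3493. *cdc-6* differed from the other 9 genes in that both mutant libraries, 1875 and 2592, were below the WT libraries, 2734 and 2765 (log2 fold change -0.32, 95% interval -0.84 to 0.21, limma adjusted p = 0.95), and 19.1% of all genes tested were lower in this way. The 95% intervals of the 10 log2 fold changes at 20°C reached from -0.84 to 0.49. For *mcm-2*, *mcm-6* and *mcm-7* their lower limits were -0.70, -0.77 and -0.67, above the changes of -0.93, -0.84 and -0.80 at 25°C. For the other genes the change at 25°C lay inside the interval. This comparison leaves out the error of the changes at 25°C (SE 0.09 to 0.10 for *mcm-2*, *mcm-6* and *mcm-7*). It therefore excludes a change of that size at 20°C for none of the 10 genes. The difference between the temperatures is tested below as an interaction, in which none of the 10 was called.

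The outcome at 20°C turned on which *nmad-1* library was kept. Across the 10 genes library A was 0.638 to 0.770 times library B, below the median of 0.787 over genes with a mean of at least 100. Without library A the log2 fold changes ran from -0.09 to 0.19 with no gene called, where 1.78% of genes were called. Without library B, 8 of the 10 genes were called lower, all but *orc-2* and *cdt-1*, where 24.5% of genes were called lower. Library A also had the highest ribosomal RNA share, 34.8%. In the 2 *nmad-1* libraries at 20°C the 8 intestine markers summed to 90844 and 316562 (193530 and 221605 in WT). The 8 muscle markers summed to 24288 and 56852 (27457 and 37074 in WT). The 8 oocyte markers summed to 178976 and 267073 (227472 and 241281 in WT). The 8 epidermis markers stayed close, at 5049 and 5118. The part of these differences in the values of the 10 genes was not tested.

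**Figure D2:**
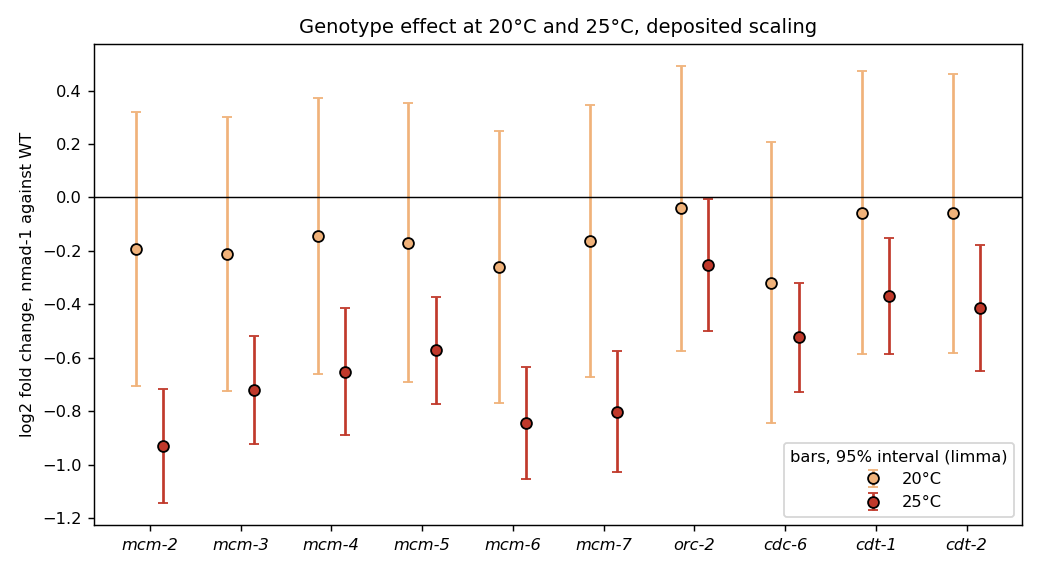
Log2 fold change of *nmad-1* against WT (y axis) for each of the 10 genes (x axis) at 20°C and 25°C on the deposited scaling, with 95% intervals from limma. Every interval includes 0 at 20°C and none does at 25°C, where that of *orc-2* ends at -0.01, and on other scalings several of the 25°C changes turn positive.

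Whether the genotype difference itself depended on temperature was tested as an interaction over all 8 libraries. The difference between the log2 fold changes at 25°C and 20°C was -0.74 for *mcm-2* (SE 0.26, limma adjusted p = 0.091), -0.64 for *mcm-7* (SE 0.26, adjusted p = 0.13) and -0.58 for *mcm-6* (SE 0.25, adjusted p = 0.15). These 3 genes had an unadjusted p under 0.05, and none of the 10 genes was called, where 9.32% of the 11265 genes tested were called and 1.25% as lower. For *mcm-3*, *mcm-4* and *mcm-5* the difference was -0.51, -0.51 and -0.40. For the licensing genes it was smaller, from -0.20 (*cdc-6*) to -0.35 (*cdt-2*), with standard errors of 0.24 to 0.25. Without *nmad-1* library A at 20°C all 10 genes were called, as were 53.4% of all genes, 32.7% in the same direction. Scaled on the 30 germline genes, only *cdc-6* was called, with a difference of 0.34 (limma adjusted p = 0.0497), where 11.9% of all genes were called.

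What counts as lower at 25°C depended on how the libraries were brought to a common scale. The deposited values of the *nmad-1* libraries at 25°C summed to 22505140 and 21937580, and those of WT to 33108053 and 32929742. Scaling every library to the same total moved the median log2 fold change of all genes from -0.09 to 0.51, and the share of genes called lower from 38% to 6.3% and called higher from 32.8% to 51.3%. On that scale *mcm-2* and *mcm-6* were still lower, with log2 fold changes of -0.36 and -0.27 (limma adjusted p = 0.012 and 0.033). *mcm-7*, *mcm-3* and *mcm-4* had -0.23, -0.15 and -0.08 and were not called, and *mcm-5* was at -0.0009. *orc-2* was higher in *nmad-1* by 0.32 (adjusted p = 0.024), and *cdt-1*, *cdt-2* and *cdc-6* had 0.20, 0.16 and 0.05 without a call. Scaled to the same total outside ribosomal RNA genes, *mcm-2* and *mcm-6* were called lower and none of the 10 higher, where 5.77% of all genes were called lower and 49.7% higher. All 10 genes lay below the median of all genes at the same total, a median that includes many genes with low values. On the deposited scaling the median of genes with a mean of at least 100 was -0.40. There *orc-2* (-0.25) and *cdt-1* (-0.37) lay above it, *cdt-2* (-0.41) close to it, and *cdc-6* and the MCM genes below it.

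Scaled to the same upper quartile, *mcm-2*, *mcm-3*, *mcm-4*, *mcm-6* and *mcm-7* were called lower and none of the 10 higher, where 14% of all genes were called lower and their median was 0.33. Scaled on 30 germline genes, 29 of which were called lower on the deposited scaling, *mcm-5* (0.22), *orc-2* (0.54), *cdc-6* (0.27), *cdt-1* (0.42) and *cdt-2* (0.38) were called higher, as were 68.7% of all genes, whose median was 0.75. On this scale *mcm-2*, *mcm-6* and *mcm-7* had -0.14, -0.05 and -0.01 and were not called. The order of the 10 genes, with *mcm-2* lowest and *orc-2* highest, was the same on each of these scales, since a scaling moves all genes of a library together.

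**Figure D3:**
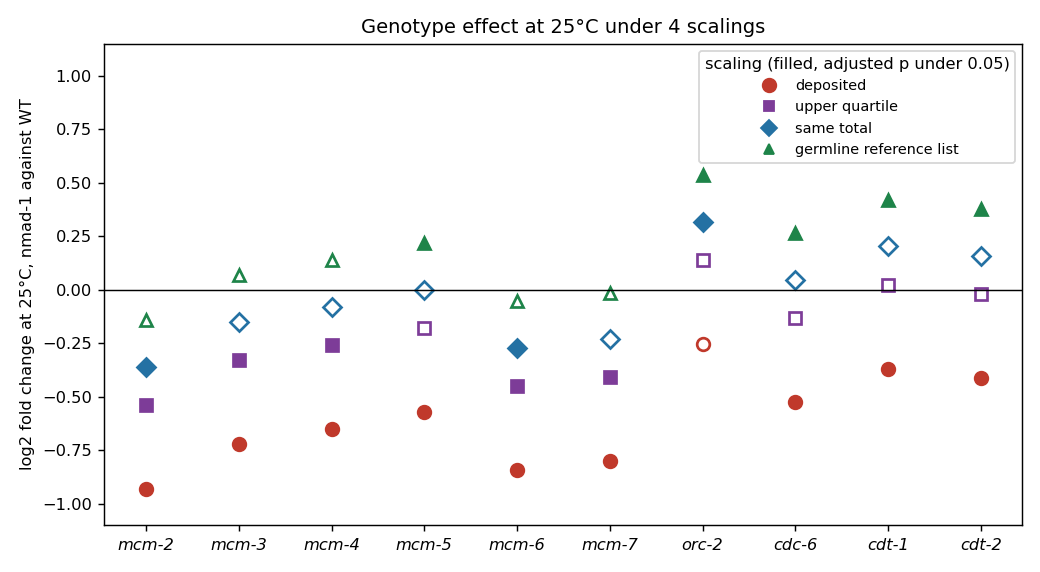
Log2 fold change of *nmad-1* against WT at 25°C (y axis) for each of the 10 genes (x axis) under the deposited scaling, the same upper quartile, the same total and a list of 30 germline genes, with filled symbols for an adjusted p under 0.05. *mcm-2* runs from -0.93 to -0.14 and *orc-2* from -0.25 to 0.54, so the direction of the licensing genes depends on the scaling.

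A comparison among the genes of a library needs no scaling between libraries. Each gene was therefore also expressed relative to the mean log2 value of *mcm-2* to *mcm-7* in its own library, a measure chosen after the data had been seen. At 25°C *orc-2* was 0.50 higher in *nmad-1* on this measure (95% interval 0.23 to 0.78, limma adjusted p = 0.0058), *cdt-1* 0.38 higher (0.14 to 0.63, adjusted p = 0.011) and *cdt-2* 0.34 higher (0.07 to 0.61, adjusted p = 0.029). *cdc-6* was at 0.23 (95% interval -0.02 to 0.48, adjusted p = 0.089). Of the 4 licensing genes 3 were thus called higher relative to the MCM genes, where 63.2% of the 12274 genes tested were called higher with a median of 0.71. The share of genes called higher was 53.4% among those with a mean of at least 100, with a median of 0.36.

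Within the ring, *mcm-2* was at -0.18 and *mcm-5* at 0.18 relative to the mean of the 6 genes (limma adjusted p = 0.11 and 0.12), with 95% intervals of -0.38 to 0.03 and -0.03 to 0.40. *mcm-6*, *mcm-7*, *mcm-3* and *mcm-4* had -0.09, -0.05, 0.03 and 0.10. No MCM gene was called to differ from this mean or had an unadjusted p under 0.05. Each gene is part of the mean, so this is no test against the remaining MCM genes. The call for the licensing genes was not stable. Without the trend of the variance none of the 4 was called, where 50.7% of all genes were called higher. There 2 of the 4 had an unadjusted p under 0.05 in limma. The call also depended on which libraries at 25°C were kept. With each left out in turn, *orc-2* ran from 0.39 to 0.61, *cdt-1* from 0.33 to 0.44, *cdt-2* from 0.24 to 0.44 and *cdc-6* from 0.13 to 0.33. At 20°C *orc-2*, *cdt-1* and *cdt-2* were at 0.15, 0.13 and 0.13 and *cdc-6* at -0.13, with adjusted p of 0.90 in limma, and none of the 12394 genes tested was called, although 671 had an unadjusted p under 0.05.

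**Figure D4:**
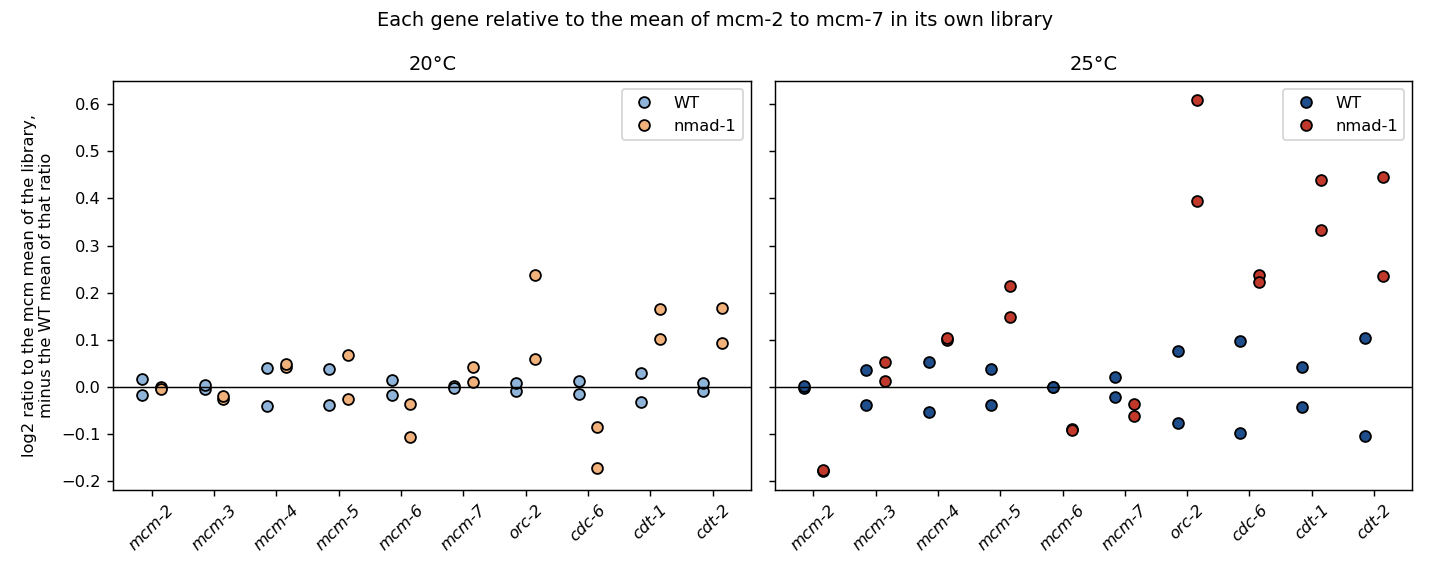
Log2 ratio of each gene (x axis) to the mean of *mcm-2* to *mcm-7* in the same library, after subtracting the WT mean of that ratio (y axis), at 20°C and 25°C. Each point is a library. At 25°C both *nmad-1* points lie above both WT points for 6 of the 10 genes, *mcm-4*, *mcm-5*, *orc-2*, *cdc-6*, *cdt-1* and *cdt-2*, and for 78.9% of all genes tested, and at 20°C for 5, *mcm-4*, *mcm-7*, *orc-2*, *cdt-1* and *cdt-2*, and 25.8% of all genes.

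The summed levels show the same shift without a test. It is not particular to these genes. Relative to the MCM genes at 25°C, the median of genes with a mean of at least 100 was 0.36, and 53.4% were called higher. The sum of the 6 MCM genes was 6.04 ± 0.09 times the sum of the 4 licensing genes in WT at 20°C (SD, n = 2 as for the values that follow), 5.78 ± 0.24 in *nmad-1* at 20°C, 5.98 ± 0.50 in WT at 25°C and 4.64 ± 0.30 in *nmad-1* at 25°C. The libraries of the last group, 4.43 and 4.85, were the lowest of the 8. Shares of all values outside ribosomal RNA genes can be taken in both tables, but they depend on the other RNA in each library. In WT the 8 intestine markers summed to 193530 to 221605 at 20°C and to 41759 to 76708 at 25°C, in tables normalized apart. The part of such differences in the shares was not tested. Of all values outside ribosomal RNA genes, the MCM genes took 0.273% ± 0.0037 at 20°C and 0.305% ± 0.0051 at 25°C in WT. Their share in *nmad-1* was 0.279% ± 0.033 at 20°C and 0.266% ± 0.0058 at 25°C. The licensing genes took 0.0453% ± 0.0013 at 20°C and 0.0512% ± 0.0035 at 25°C in WT, against 0.0482% ± 0.0037 and 0.0574% ± 0.0050 in *nmad-1*. Between the means, the MCM share was highest in WT and lowest in *nmad-1* at 25°C, but the lowest library was *nmad-1* library A at 20°C (0.256%), and library B of that group (0.303%) lay between the WT libraries at 25°C (0.302% and 0.309%). The mean licensing share was highest in *nmad-1* at 25°C (libraries at 0.0539% and 0.0609%, against 0.0488% and 0.0537% in WT).

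The subunits of the ring were not measured at equal levels. Per kilobase of exon, *mcm-7* led the 10 genes in each of the 8 libraries, at 5781 ± 47.4 in WT at 20°C and 7555 ± 665 in WT at 25°C. In WT at 20°C it was followed by *mcm-3* (3667 ± 7.75), *mcm-6* (3529.9 ± 73.9) and *mcm-2* (3379 ± 40.1), whose libraries did not overlap from gene to gene. *mcm-5* (2852 ± 92.3) and *mcm-4* (2813 ± 129) came last and did overlap. In WT at 25°C *mcm-3* (4920.1 ± 153), *mcm-2* (4834 ± 336) and *mcm-6* (4631 ± 310) overlapped, as did *mcm-5* (3565 ± 106) and *mcm-4* (3466 ± 410). The highest MCM gene was between 1.95 and 2.23 times the lowest within every library.

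The licensing genes stood below every MCM gene per kilobase in all libraries. In WT at 20°C *cdc-6* was at 1568 ± 12.7, *cdt-2* at 1287 ± 3.68, *orc-2* at 898 ± 1.87 and *cdt-1* at 795 ± 19.6. In *nmad-1* at 25°C *cdc-6* (1403 ± 12.2) and *cdt-2* (1354 ± 140) overlapped, and *orc-2* (1041 ± 111) and *cdt-1* (777 ± 41.2) kept their places. The order from *cdc-6* down to *cdt-1* was the same in the means of all 4 groups.

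Values of the 10 genes rested on 1014 to 17920 reads, for which the 95% counting error (exact Poisson) was between 1.47% and 6.21%. The annotation places a gene on the opposite strand over some exon bases of *mcm-2*, *mcm-3*, *mcm-4*, *mcm-6*, *mcm-7* and *cdt-2*, at most 2.72% of the member's exons (*mcm-3*). Whether reads were counted by strand is not given in the sources used here.

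Most of the other genes of replication initiation and its control were also called lower at 25°C on the deposited scaling. So were 38% of all genes tested and 59.9% of those with a mean of at least 100. Fewer were called lower in each list when libraries were scaled to the same total. At that scaling 6.3% of all genes were called lower and 51.3% higher. Of 5 other ORC and licensing genes, all 5 were lower (median log2 fold change -0.67) and none was called after scaling to the same total. Among them *orc-3* and *orc-4*, further ORC subunits, had -0.67 and -0.72 (limma adjusted p = 9.5e-04 and 0.0010), and *gmn-1*, the geminin that holds CDT-1 in check, had -0.73 (adjusted p = 0.0019). *orc-3* was 1695 and 1702 in WT and 1122 and 1011 in *nmad-1*, and *gmn-1* was 1419 and 1709.9 against 858 and 1022.

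Of 14 genes that turn the loaded ring into an active helicase, 13 were found and tested, and 11 were lower and none higher (median -0.46), against 2 lower and 3 higher after scaling to the same total. The count of 11 was 6 without the trend of the variance, where 28.5% of all genes were called lower, against 38% with it. It also fell with any library left out. The most significant were *psf-2* (-0.99), a subunit of the GINS complex, *cdk-1* (-0.75), the mitotic cyclin-dependent kinase, and *ctf-4* (-0.72), which links helicase and polymerase in yeast, with limma adjusted p of 3.7e-04, 4.1e-04 and 4.1e-04. *psf-2* was 942 and 993 in WT and 501 and 473 in *nmad-1*. *sld-5*, another GINS subunit, did not pass the test, with 725 and 753 in WT and 738 and 683 in *nmad-1*, and neither did *mcm-10* (log2 fold change -0.18, adjusted p = 0.16).

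Of 7 genes of the CUL-4 ligase and of CDC-6 and CDT-1 control, 6 were lower and 1 higher (median -0.49), against 2 lower and 2 higher after scaling to the same total. *pcn-1*, the PCNA clamp on which CDT-1 is marked for destruction, was 13898 and 16186 in WT and 8232 and 8111 in *nmad-1* (-0.88, limma adjusted p = 3.3e-04). *ned-8*, the modifier that activates cullins, had -0.87 (adjusted p = 5.1e-04), and *cand-1*, which exchanges their substrate receptors, had -0.67 (adjusted p = 9.1e-04). The gene that moved the other way was *cki-1*, a cyclin-dependent kinase inhibitor that in *C. elegans* acts in the export of CDC-6 from the nucleus, at 51.5 and 47.2 in WT and 94.9 and 98.4 in *nmad-1* (0.96, SE 0.27, adjusted p = 0.013). It was not called without WT library A, without WT library B or without *nmad-1* library A.

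Of 10 genes for unloading the helicase at the end of replication, which in *C. elegans* embryos needs CUL-2 with LRR-1 and the CDC-48 segregase, 9 were lower and none higher (median -0.73), against 4 lower and 1 higher after scaling to the same total. *cdc-48.1* had -1.27, *cdc-48.2* -0.95 and the CDC-48 cofactor gene *npl-4.1* -0.83, with limma adjusted p of 1.8e-04, 2.1e-04 and 2.6e-04. *lrr-1* was not called (-0.21, adjusted p = 0.093). Of 4 E2F and Rb family genes, which control transcription of replication genes, *dpl-1* (-0.65, adjusted p = 6.4e-04) and *lin-35* (-0.28, adjusted p = 0.022) were lower, and *efl-1* (-0.21) and *efl-2* (-0.22) were not called. The count of 2 was 1 without the trend of the variance, where 28.5% of all genes were called lower. It also depended on the library left out. After scaling to the same total 3 of the 4 were called higher, as were 51.3% of all genes. At 20°C no gene of these lists was called in limma or had an unadjusted p under 0.05.

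**Figure D5:**
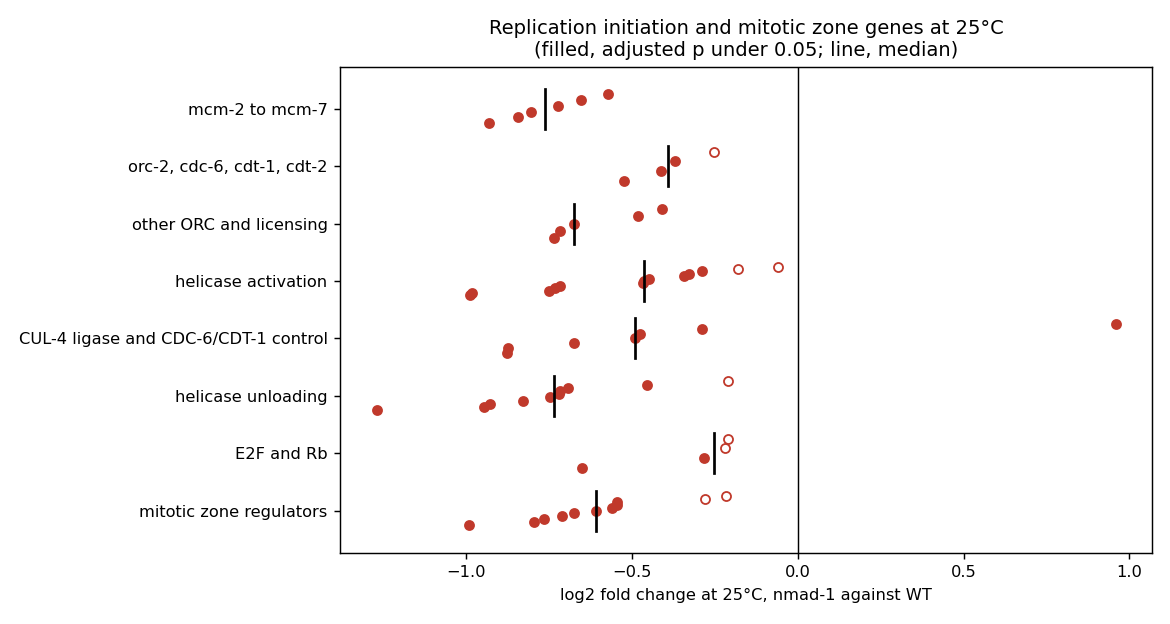
Log2 fold change of *nmad-1* against WT at 25°C (x axis, deposited scaling) for the genes of each list (y axis), with filled points for an adjusted p under 0.05 and a line at the list's median. The MCM genes have a median of -0.76 and the 4 licensing genes of -0.39, *cki-1* is at 0.96, a call lost when any of 3 of the 4 libraries is left out, and scaling to the same total moves the median of all genes from -0.09 to 0.51.

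Genes that mark the germ cells were lower too on the deposited scaling. On it 38% of all genes and 59.9% of those with a mean of at least 100 were called lower. Of 11 regulators of the mitotic zone, where germ cells divide, 9 were lower and none higher (median -0.61), against 1 lower and 1 higher after scaling to the same total, and 7 of the 11 are also in the list of 30 germline genes. *gld-1* (-0.99), *gld-3* (-0.79) and *nos-3* (-0.71), regulators of the entry into meiosis, were the most significant (limma adjusted p = 2.1e-04, 3.0e-04 and 4.9e-04). *lag-1* (-0.22) and *sygl-1* (-0.28) were not called (limma adjusted p = 0.076 and 0.13). Of the 30 germline genes 29 were lower, against 13 lower and 1 higher after scaling to the same total, with *csr-1* at -1.35, *car-1* at -1.32 and *pgl-3* at -1.29 (adjusted p = 1.5e-04, 1.8e-04 and 1.5e-04). In germlines measured in bulk, fewer cells of a type and less RNA per cell cannot be told apart.

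Marker sums moved with genotype beside the MCM genes at 25°C. The 8 germ line markers summed to 96644 and 98487 in the WT libraries and 52019 and 52831 in the *nmad-1* libraries, and the 8 oocyte markers to 306499 to 349974 against 169391 to 177260, with all 8 of each list called lower. On this deposited scaling 38% of all genes tested were called lower, and 59.9% of those with a mean of at least 100. After scaling to the same total 4 of 8 germ line and 3 of 8 oocyte markers were called lower and none higher. Scaled on the germline genes 1 of each list was lower, with 3 germ line markers and 1 oocyte marker higher. On that scale 68.7% of all genes were called higher and 2.52% lower. The germline genes used for it include 4 of the 8 germ line and 4 of the 8 oocyte markers. The counts on that scale are therefore no independent test of these markers. In the other direction, 6 of 8 muscle markers were called higher (sums 6399.9 to 9868 against 14649 to 18182), 6 of 8 intestine markers (41759 to 76708 against 91733 to 313453), 5 of 8 neuron markers (3736 to 3895 against 5022 to 6024) and all 6 sperm markers that could be tested (32.9 to 45.6 against 427 to 639), where 32.8% of all genes were called higher. All 8 muscle and all 8 neuron markers and 7 of 8 intestine markers were called higher after scaling to the same total. At that scaling 51.3% of all genes were called higher and 6.3% lower. For the epidermis 1 of 6 tested markers was called lower and 2 higher, with the *rol-6* marker at 0 in all libraries at 25°C (sums 4649 to 5466 against 4229 to 4479). Of 7 tested markers of the gonadal sheath and spermatheca 2 were lower and 2 higher, with *ckb-3* at 0 in WT (sums 25263 to 27818 against 14778 to 18248). The part of these shifts in the values of the MCM and licensing genes was not tested.

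Over the 8 libraries, centred within each temperature, the profile of the 6 MCM genes was shared by many genes. The genes outside the 10 whose profiles were most like their mean were *puf-5* (r = 0.999), *skn-1* (0.998), *C49F5.6* (0.997), *tim-1* (0.997) and *pqe-1* (0.997). *puf-5* is also among the oocyte markers. The correlation was above 0.95 for 1890 of the 7155 genes compared (26.4%), with a median of 0.888. Libraries share their scaling and the low *nmad-1* library A at 20°C, so these values are a description. Among the members r ran from 0.998 for *mcm-7* and 0.997 for *mcm-3* down to 0.976 for *mcm-5*, each of which contributes to the mean, and it was 0.95 for *cdc-6*, 0.944 for *cdt-1*, 0.919 for *cdt-2* and 0.859 for *orc-2*.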

How the data were processed

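mRNA from germlines was sequenced in 8 libraries. The authors trimmed reads with CutAdapt and, per the labels, used Bowtie2 2.2.9, RSEM 1.3.0 and the ce10 (WS220) genome. The deposited signal is an expected count from RSEM over an EBSeq size factor, made for each temperature apart. A table of comparisons with posterior probabilities and a fold (ratio) was not used.

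The comparison named in the descriptions and in a supplementary sheet gave each column its group, and columns carry no replicate numbers. Between 90.9% and 92.1% of nonzero values came out as whole reads (tolerance 0.01), too few for a count test, against 80 of 80 values of the 10 genes. Chi-square per degree of freedom between libraries of a group was 21.7 to 113.

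Genes with a mean of at least 10 were tested with limma 3.58.1 (R 4.3.3) on log2(value + 1), with a variance trend and Benjamini-Hochberg adjustment at 0.05. Fold changes are on that scale. The code was tested on simulated data. Symbols were paired for 43720 of 46739 IDs. Chromosomes and exon lengths come from WBcel235, another build, so no coordinates are given. The genes named are the 10 members, *nmad-1*, up to 3 genes per list and direction with the smallest p at 25°C and the 5 most similar profiles. *sld-5*, *mcm-10*, *lrr-1*, *efl-1*, *efl-2*, *lag-1*, *sygl-1* and the marker names were added after their values were seen. The members and lists were chosen with earlier results of these data known. Alternatives were pseudocounts of 0.5 and 5, filters, scalings, no trend and each library left out.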

Additional observations from a re-analysis of the deposited data

How the results depend on the processing

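Of the 10 genes, 9 were called at 25°C with pseudocounts of 0.5 and 5, where 37.9% and 38.1% of all genes were called lower. Without a filter on low values and with a mean of at least 100 the count was also 9, where those shares were 22.8% and 59.9%. Without the trend of the variance 7 were called, where 28.5% of all genes were called lower. All these calls were lower. The scaling decided more. At the same total 3 were called, where 6.3% of all genes were called lower and 51.3% higher. At the same total outside ribosomal RNA genes 2 were called, where the shares were 5.77% and 49.7%. At the same upper quartile 5 were called, all lower, as were 14% of all genes. On the list of germline genes 5 were called, all higher, as were 68.7% of all genes. In the interaction 1 gene was called with the last of these scalings, *cdc-6*, where 11.9% of all genes were called. In the other settings that kept all libraries 0 were called, where 0.0355% to 15.7% of all genes were. The count of licensing genes higher relative to the MCM genes was 3, where 63.2% of all genes were called higher. This measure was chosen after the data had been seen. Without the trend the count fell to 0, where the share was 50.7%. With each library left out in turn, the genes called ranged from 0 to 8 at 20°C, from 8 to 10 at 25°C, from 0 to 10 in the interaction and from 0 to 3 for the licensing genes relative to the MCM genes. The 8 at 20°C came without *nmad-1* library B and the 10 in the interaction without *nmad-1* library A. The counts of the replication and mitotic zone lists mostly moved by less than 1.5 times with a library left out. Those of helicase activation, of E2F and Rb and of *cki-1* moved more. The share of all genes called moved as well. The cause of these changes was not tested. No paired analysis was possible because the columns carry no replicate numbers. With 2 libraries a group, a leave-one-out fit assumes that the lone library varies like the other groups.

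At 20°C, where no gene was called, the log2 fold change turned positive in libraries scaled to the same total for *orc-2* (0.015), scaled to the same total outside ribosomal RNA genes for *mcm-2* (0.024), *mcm-3* (0.0042), *mcm-4* (0.072), *mcm-5* (0.047), *mcm-7* (0.053), *orc-2* (0.18), *cdt-1* (0.16), *cdt-2* (0.16), scaled to the same upper quartile for *mcm-4* (0.021), *mcm-7* (0.0019), *orc-2* (0.12), *cdt-1* (0.11), *cdt-2* (0.11), and scaled on the list of germline genes for *mcm-2* (0.052), *mcm-3* (0.032), *mcm-4* (0.10), *mcm-5* (0.075), *mcm-7* (0.0805), *orc-2* (0.20), *cdt-1* (0.19), *cdt-2* (0.18). At 25°C it turned positive in libraries scaled to the same total for *orc-2* (0.32), *cdc-6* (0.048), *cdt-1* (0.20), *cdt-2* (0.16), scaled to the same total outside ribosomal RNA genes for *orc-2* (0.32), *cdc-6* (0.045), *cdt-1* (0.20), *cdt-2* (0.16), scaled to the same upper quartile for *orc-2* (0.14), *cdt-1* (0.025), and scaled on the list of germline genes for *mcm-3* (0.068), *mcm-4* (0.14), *mcm-5* (0.22), *orc-2* (0.54), *cdc-6* (0.27), *cdt-1* (0.42), *cdt-2* (0.38). The interaction turned positive in libraries scaled to the same total for *mcm-3* (0.0066), *mcm-4* (0.0075), *mcm-5* (0.11), *orc-2* (0.30), *cdc-6* (0.31), *cdt-1* (0.20), *cdt-2* (0.16), scaled to the same total outside ribosomal RNA genes for *orc-2* (0.14), *cdc-6* (0.15), *cdt-1* (0.0403), scaled to the same upper quartile for *orc-2* (0.017), *cdc-6* (0.023), and scaled on the list of germline genes for *mcm-3* (0.037), *mcm-4* (0.038), *mcm-5* (0.14), *orc-2* (0.33), *cdc-6* (0.34), *cdt-1* (0.23), *cdt-2* (0.19). Leaving out each library in turn gave log2 fold changes at 20°C from -0.30 to 0.19 for *cdt-1*, -0.30 to 0.18 for *cdt-2*, -0.47 to 0.082 for *mcm-2*, -0.49 to 0.068 for *mcm-3*, -0.42 to 0.14 for *mcm-4*, -0.49 to 0.16 for *mcm-5*, -0.42 to 0.10 for *mcm-7*, -0.23 to 0.15 for *orc-2*, each turning positive without *nmad-1* library A. The interaction of *cdc-6* ran from -0.44 to 0.029, turning positive without *nmad-1* library B at 20°C.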
